A study of Mus musculus with 2 samples.

Results

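The genes described here were Gdf15 and 9 genes of the cellular response to amino acid shortage and other stress: Atf4, Atf5, Trib3, Asns, Chac1, Ddit3, Sesn2, Phgdh and Psat1. They were taken by symbol from the gene tables of 2 mouse liver sections, where the 10 symbols occupied 11 of 32285 rows because Ddit3 is listed under 2 identifiers. The set was selected on the levels of these same sections, so the differences between the sections are descriptions and carry no test. One liver section of a mouse on normal chow diet (NCD) and 1 of a mouse on high-fat diet (HFD) were measured by Visium spatial transcriptomics, in which a tissue section lies on a grid of barcoded spots, each covering several cells, and captured transcripts are counted as unique molecular identifiers (UMIs).

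Both mice were male C57BL/6J, bought at 5 weeks of age and given 1 week to acclimate. They then received chow or a diet with 60% fat for 14 weeks, and distilled water by mouth during a further 8 weeks of intervention in which other animals of the study were treated. The livers were frozen fresh, embedded and cut into frozen sections. With 1 section per diet, diet, animal and section cannot be told apart, and every interval given is a 95% interval for counting error only. The labels also carry the terms immune cell and hematopoietic stem cell, but the tissue was whole liver. The 8 hepatocyte markers together reached 119793 UMIs per 1000000 UMIs (CPM) in NCD and 137523 in HFD, against 6.61 and 10.7 CPM for the pan-leukocyte gene Ptprc and 56.6 and 89.3 CPM for 7 stem cell markers.

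The NCD section had 29037988 UMIs in 3692 spots over tissue (median 4187.5 per spot). The HFD section had 72118803 UMIs in 3594 spots (median 18549 per spot), so that low genes were measured more precisely in HFD. Spots off the tissue took 19.1% of the NCD UMIs and 2.93% of the HFD UMIs, and the median NCD spot off the tissue still held 3383 UMIs. Of the spot barcodes over tissue, 3173 occurred in both sections, and all 4992 barcodes of a capture area occurred in both full matrices.

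GDF15 is a secreted stress cytokine of the TGF-beta family that acts on the hindbrain receptor GFRAL with its co-receptor RET and lowers food intake. Its gene is a known target of the integrated stress response, in which kinases that sense amino acid shortage, endoplasmic reticulum stress, viral RNA or heme lack phosphorylate eIF2alpha, general translation slows and the transcription factor ATF4 is translated more. ATF4 and its partners then switch on genes for amino acid synthesis and uptake, for tRNA charging and for damping or ending the response, and p53 is another known activator of Gdf15.

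ATF4 binds composite C/EBP-ATF elements, and the letters TGATGNAAN were searched on both strands of the 250 bases before each annotated start to show where such a stretch lies in these genes. All 10 genes had promoter entries in RefSeq (GRCm38.p6), 13 in total. A match was found before 2 of the 10 genes, in 2 of 13 promoters, against 1128 of 32817 promoters of the same length overall (3.44%). These stretches are printed because they carry the letters, with up to 20 bases on each side, 5′ to 3′ on the strand of the gene, with the matched letters in capitals.
Asns: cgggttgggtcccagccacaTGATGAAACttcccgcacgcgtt
Chac1: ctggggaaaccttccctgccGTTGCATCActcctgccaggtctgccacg
The Asns stretch, chr6:7693210-7693252 on the minus strand, held the match on the forward strand 23 to 15 bases before the start. The Chac1 stretch, chr2:119351028-119351076 on the plus strand, held it on the reverse strand 194 to 186 bases before the start. Between the sections these 2 genes differed in opposite directions. No match of these letters lay in the searched window of the other 8 genes, Gdf15 (gene at chr8:70629393-70632456, minus strand) included, which says nothing of elements elsewhere.

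For Gdf15, 75 UMIs were counted in NCD and 4382 in HFD. Its pooled level, the UMIs of the gene over all UMIs of the section, was 2.58 CPM in NCD and 60.8 CPM (interval from 59.0 to 62.6) in HFD. This was a 23.5-fold difference, or 4.56 on the log2 scale (4.23 to 4.91), and ranked 22 by ratio among 12919 genes whose UMIs over both sections came to 50 or more. The median log2 ratio of those genes was 0.25. At matched position in the lobule the fold was 21.3 in the periportal zone, 27.8 in the middle zone and 20.9 in the pericentral zone, with overlapping intervals. As in all bulk measures of mixed cells, fewer cells of a type and less RNA per cell cannot be told apart.

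The larger Gdf15 total was spread over the section rather than held by a few spots. A Gdf15 UMI was present in 71 of 3692 NCD spots (1.92%) and in 2212 of 3594 HFD spots (61.5%). When every spot was drawn down to 3000 UMIs and shallower spots were left out, 15 of 2107 NCD spots (0.712%) and 575 of 3538 HFD spots (16.3%) held at least 1, a difference of 15.5 percentage points (14.3 to 16.8). In the HFD section at full depth 1382 spots held none, 1075 held 1, 573 held 2, 316 held 3, 131 held 4, 63 held 5 and 54 held 6 or more, up to 12. Outside the spots marked as tissue, the Gdf15 level was 1.60 CPM in NCD (11 UMIs) and 43.6 CPM in HFD (95 UMIs). The NCD spots off the tissue held nearly as many UMIs (median 3383) as those over it, and whether some of them lay over tissue was not tested. The HFD level over tissue was higher than off it by 0.48 on the log2 scale (0.18 to 0.79), and where the transcripts off the tissue came from was not tested.

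Drawn down to 8200 UMIs per spot, which 3243 HFD spots allowed, Gdf15 counts had a variance of 1.10 times their mean, where independent random counting at one level gives a ratio near 1. The ratio was 1.03 for Atf4, 1.06 for Ddit3, 1.09 for Atf5 and 1.09 for Chac1. By comparison it was 2.42 for Cyp2f2, a periportal cytochrome P450, and 9.49 for Glul, the glutamine synthetase of the hepatocytes around the central vein. The zoned genes also had higher counts, with means of 4.77 and 3.81 UMIs per spot against 0.493 for Gdf15, and this ratio grows with the mean. At a mean as low as that of Gdf15, a ratio near 1 does not show that the level is even over the spots.

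The other 9 genes did not share the size of the Gdf15 difference. Of the 9 genes of the set with at least 50 UMIs, Gdf15 included, 5 were at least 2-fold higher in HFD, where 11.9% of all 12919 genes were, and 1 was at least 2-fold lower, where 2.5% of all genes were. The median log2 ratio of these 9 was 1.13. The members were selected on this contrast, so the counts are given beside those shares as a description only.

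**Figure D1:**
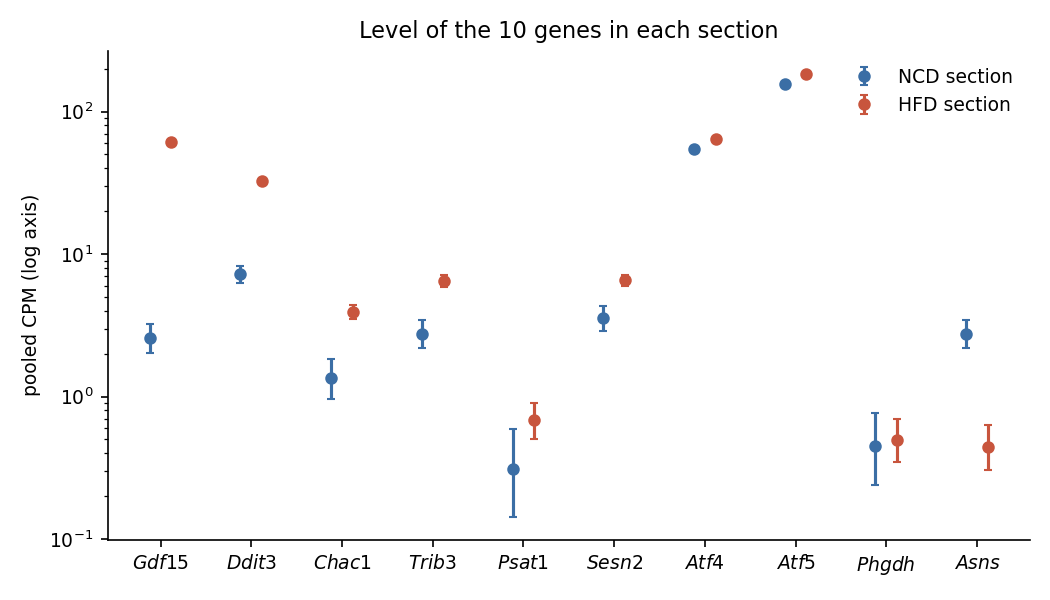
Pooled CPM (log axis) of the 10 genes in the NCD and the HFD section, ordered by the ratio between the sections, with 95% counting intervals. Gdf15 stands at 2.58 and 60.8 CPM, while Asns is the gene with the lower level in HFD, 2.76 against 0.444 CPM.

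Among the transcription factors, Ddit3, which encodes CHOP, a factor induced downstream of ATF4 that promotes cell death under prolonged stress, had 209 UMIs in NCD and 2352 in HFD. Its level was 7.20 and 32.6 CPM, 4.53-fold higher in HFD (log2 2.18, from 1.98 to 2.39). Its reads may be undercounted in both sections, because the second Ddit3 identifier lies inside the first and held no UMI. The gene also overlaps Mars and Gm4189 on the other strand, and the effect of that overlap was not tested. Atf4 itself, whose product is controlled mainly at translation, stood at 54.7 and 64.5 CPM (1588 and 4650 UMIs), a log2 ratio of 0.24 (0.16 to 0.32) that is close to the median of all genes. Atf5, a related factor also controlled at translation and linked to the mitochondrial stress response, stood at 156 and 183 CPM (4538 and 13223 UMIs), a log2 ratio of 0.23. Its direction was not stable: the ratio was -0.19 when every spot was weighted equally and -0.30 when spots were drawn down to 300 UMIs.

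Among the genes that damp the response or act on growth signals, Trib3, a pseudokinase that binds ATF4 and restrains it, had 80 UMIs in NCD and 466 in HFD. Its level was 2.76 and 6.46 CPM, 2.35-fold higher in HFD (log2 1.23, from 0.88 to 1.59). The log2 ratio was 3.36 after the mean off-tissue count was subtracted. That value rests on few remaining NCD counts, because Trib3 stood at 3.78 CPM (26 UMIs) off the NCD tissue. Sesn2, a leucine sensor that restrains mTORC1, stood at 3.55 and 6.56 CPM (103 and 473 UMIs), 1.85-fold higher (log2 0.89, from 0.58 to 1.21). Chac1, an enzyme that breaks down glutathione, stood at 1.34 and 3.92 CPM (39 and 283 UMIs), 2.92-fold higher (log2 1.55, from 1.06 to 2.07). The Chac1 log2 ratio rested on few NCD counts: it was 2.55 at 3000 UMIs per spot, 5.46 without the 1% of spots with the most Chac1 UMIs, and -0.66 at 300 UMIs, where 3 NCD and 2 HFD UMIs were left. For each of these genes the intervals of the levels in the 2 sections did not overlap.

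The genes of amino acid synthesis behaved differently from one another. Asns, asparagine synthetase and a classical ATF4 target, had 80 UMIs in NCD but 32 in the deeper HFD section. Its level was 2.76 and 0.444 CPM, 6.21-fold lower in HFD (log2 -2.63, from -3.27 to -2.03). By position the Asns log2 ratio was -2.08 in the periportal zone, -2.16 in the middle zone and -4.13 in the pericentral zone, where its HFD count was 5 UMIs. Psat1 and Phgdh, enzymes of serine synthesis, were near the limit of detection. Psat1 had 9 and 49 UMIs, 0.310 and 0.679 CPM (log2 1.13, from 0.09 to 2.34). Phgdh had 13 and 36 UMIs, 0.448 and 0.499 CPM (log2 0.16, from -0.79 to 1.20), and fell short of the 50 UMIs needed to be counted.

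The rest of the pathway was read from lists of known genes, beside the 11.9% of all genes that were at least 2-fold higher in HFD. Among the sensors and regulators of eIF2alpha, 1 of 10 genes was at least 2-fold higher, near that share. It was Eif2ak3, which encodes PERK, the kinase of endoplasmic reticulum stress, at 4.75 and 14.9 CPM (log2 1.65). Eif2ak4, which encodes GCN2, the kinase that senses uncharged tRNA, stood at 3.48 and 3.67 CPM (log2 0.08, from -0.26 to 0.42). Of 9 partner factors, 2 were past 2-fold, Atf3 (1.72 and 9.48 CPM, log2 2.46) and Nupr1 (2.31 and 8.24 CPM, log2 1.84). Both are stress-induced regulators known to act with ATF4.

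Of 12 other ATF4 targets, 6 were at least 2-fold higher in HFD and none at least 2-fold lower, with a median log2 ratio of 0.90. They included Fgf21, a second secreted stress hormone of the liver, at 5.20 and 24.1 CPM (151 and 1736 UMIs, log2 2.21), Herpud1, a component of endoplasmic reticulum protein degradation, at 225 and 870 CPM (log2 1.95), and Ddit4, an inhibitor of mTORC1, at 5.65 and 17.2 CPM (log2 1.61). Lists that serve amino acid supply were read against the 11.9% of all genes that were at least 2-fold higher and the 2.5% that were lower. None of 13 measured aminoacyl-tRNA synthetases and tRNA export genes was past 2-fold (median 0.24). Of 9 amino acid transporters with 50 UMIs, 2 were higher and 1 was lower (median 0.40), and of 10 serine, glycine and one-carbon enzymes, 2 were higher and 1 was lower (median 0.29). The median of all genes was 0.25, and differences between lists were not tested.

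The chaperones and other genes of endoplasmic reticulum stress had the highest median of the stress lists. The counts that follow stand beside 11.9% of all genes at least 2-fold higher in HFD and 2.5% at least 2-fold lower. Of 10, 7 were at least 2-fold higher in HFD (median 1.21), among them Creld2 (12.9 and 89.9 CPM, log2 2.80), Manf (43.2 and 244 CPM, log2 2.50), Sdf2l1 (7.06 and 36.6 CPM, log2 2.38) and Hspa5, which encodes the chaperone BiP (239.7 and 798 CPM, log2 1.73). Of 10 genes of the mitochondrial stress response, a list that also holds Atf5, none was past 2-fold (median 0.10). Of 8 p53 targets, 4 were past 2-fold (median 0.98), with Cdkn1a, the cell cycle inhibitor p21, at 2.17 and 46.3 CPM (63 and 3339 UMIs, log2 4.42), a ratio close to that of Gdf15. Gfral, the receptor of GDF15, had no UMI in either section, and Ret had 0 and 1. Among markers of other cells, 6 of 7 lipid-associated macrophage markers and 5 of 8 bile duct markers were at least 2-fold higher in HFD (summed level 49.9 and 178 CPM, and 400.2 and 887 CPM), as were 3 of 7 stellate cell markers and 2 of 3 monocyte markers with 50 UMIs. At least 2-fold lower were 4 of 5 red blood cell markers (6738 and 1292 CPM), 3 of 6 Kupffer cell markers (215.4 and 205.8 CPM) and 2 of 4 B cell markers with 50 UMIs (29.7 and 9.33 CPM). In the bile duct sum, Krt8 alone gave 28206 of the 63998 HFD UMIs. None of the markers in these lists was at 0 in either section, and their part in the differences above was not tested.

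**Figure D2:**
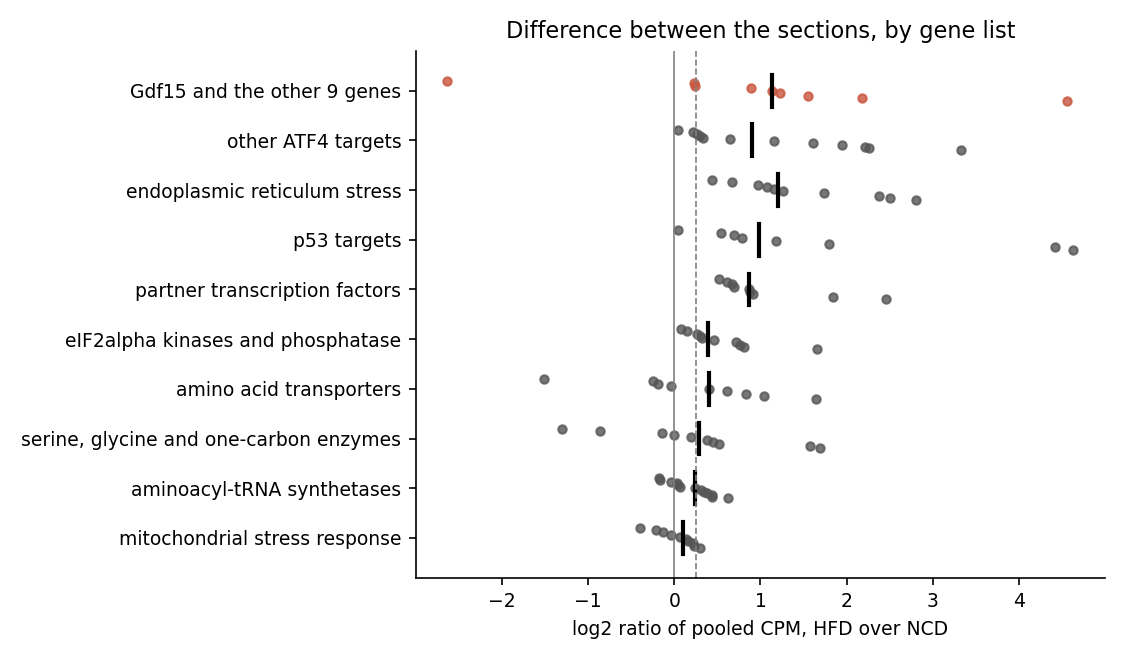
Log2 ratio of pooled CPM, HFD over NCD, of each gene with enough counts, by list, where dots are genes, black bars list medians, the solid line 0 and the dashed line the median of all genes (0.25). The endoplasmic reticulum stress list has a median of 1.21 and the aminoacyl-tRNA synthetases 0.24, while Gdf15 is the rightmost dot of the top row at 4.56.

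To ask whether these genes followed the portal to central axis of the lobule, spots were ranked by the share of pericentral UMIs among the UMIs of 7 pericentral and 7 periportal marker genes, none of them a gene of the set, and cut into 3 zones of equal spot number. Spots with fewer than 5 such UMIs, 571 in NCD and 3 in HFD, were not placed. Among genes it had not used, a second set of 7 pericentral genes had a log2 ratio, pericentral over periportal, of 2.01 in NCD and 2.11 in HFD, and a second set of 7 periportal genes had a weaker one, -0.84 and -0.69. In HFD the periportal zone was deeper, with a median of 24483 UMIs per spot against 14531 in the middle and 17233 in the pericentral zone.

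Gdf15 had similar levels at both ends of the lobule in the HFD section. It was 59.3 CPM (56.6 to 62.1) in the periportal zone, 64.5 CPM (61.0 to 68.1) in the middle and 59.3 CPM (56.1 to 62.6) in the pericentral zone, with 1790, 1306 and 1286 UMIs. The log2 ratio of the pericentral to the periportal zone was -0.00053, with an interval of -0.11 to 0.10, and with the zones cut within 10 classes of depth it was 0.11. The middle zone was slightly higher than the periportal zone (log2 0.12, from 0.02 to 0.22). In NCD the 21, 28 and 26 UMIs gave 2.78, 2.32 and 2.83 CPM, a log2 ratio of 0.02 whose interval, -0.86 to 0.93, would also hold an almost 2-fold gradient in either direction.

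Ddit3, in contrast, was periportal in HFD. It stood at 38.9 CPM (36.7 to 41.2) in the periportal, 31.3 CPM (28.9 to 33.8) in the middle and 25.2 CPM (23.1 to 27.4) in the pericentral zone, 1.54-fold higher at the portal end (log2 ratio of pericentral to periportal -0.63, from -0.78 to -0.48), and the intervals of the zones did not overlap. With the zones cut within 10 classes of depth the ratio was -0.57. Endoplasmic reticulum stress genes as a sum ran the same way (log2 -0.49), with Creld2 at 114 and 64.7 CPM and Hspa5 at 941 and 627 CPM in the outer zones, and so did the summed bile duct markers (log2 -0.72). Of the 63998 HFD UMIs in the bile duct sum, Krt8 gave 28206, Krt18 14761 and Spp1 13474, against 193 for Krt19. That sum thus mostly reads a few genes rather than the whole list. Whether bile duct cells took part in the Ddit3 gradient was not tested. In NCD Ddit3 stood at 7.82, 7.36 and 6.43 CPM on 59, 89 and 59 UMIs, with intervals that overlapped.

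Of the other genes in HFD, Trib3 ran the opposite way, from 5.43 CPM at the portal end through 6.96 to 7.42 CPM at the central end (log2 0.45, from 0.13 to 0.77). With the zones cut within 10 classes of depth its ratio was 0.26. Over 5 classes of position Trib3 did not rise steadily (5.48, 6.16, 6.98, 5.57 and 8.67 CPM). Atf5 was also higher at the central end, by less, from 173 to 195 CPM (log2 0.18, from 0.12 to 0.24). Atf4 was slightly periportal at 68.9, 62.2 and 60.5 CPM (log2 -0.19, from -0.29 to -0.09). Chac1 (log2 -0.33) and Sesn2 (log2 0.24) had intervals that included 0. Psat1, with 33, 11 and 5 UMIs, was 4.74-fold higher in the periportal zone (log2 -2.25, from -3.96 to -0.88) but had fewer than 50 UMIs in the section. In NCD, among the 7 genes with at least 50 UMIs, Atf5 alone had an interval that excluded 0, from 169 CPM periportally to 148 CPM pericentrally (log2 -0.19, from -0.31 to -0.08).

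The gradients were set against those of all genes, whose median log2 ratio of the pericentral to the periportal zone was 0.11 in NCD and 0.07 in HFD. At least 1.5-fold higher in the periportal zone were 6.48% of 12468 genes in HFD and 5.67% of 10495 in NCD, and in the pericentral zone 5.84% in HFD and 9.22% in NCD. Of the 7 genes of the set with 50 UMIs in HFD, Ddit3 was past 1.5-fold on the periportal side and none on the pericentral side. Of the 7 in NCD, Asns was past it on the pericentral side, at 2.52, 1.99 and 4.03 CPM on 19, 24 and 37 UMIs, with an interval that included 0 (log2 0.68, from -0.16 to 1.56).

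**Figure D3:**
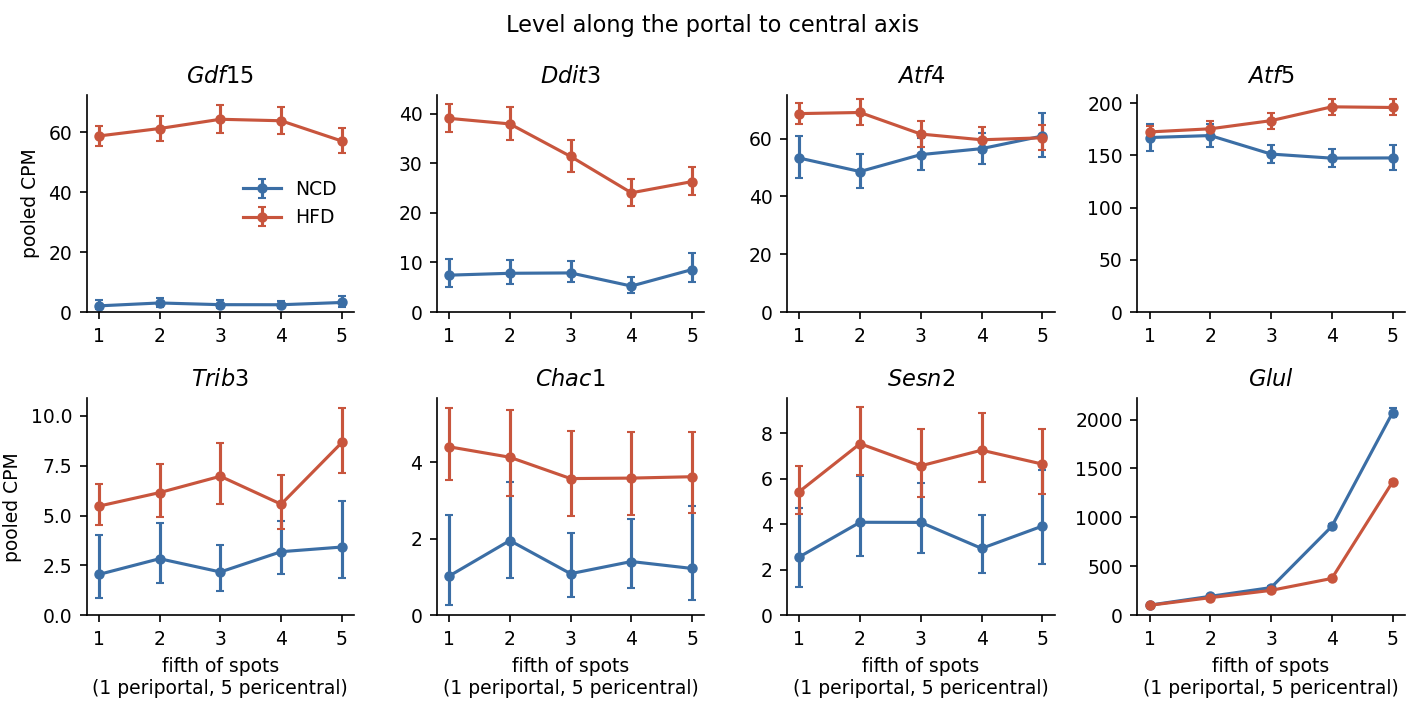
Pooled CPM of 7 genes of the set and of Glul, a pericentral reference gene that helped define the ranking, in 5 classes of equal spot number from the periportal (1) to the pericentral (5) end, for NCD and HFD, with 95% counting intervals. In HFD Gdf15 stays between 57.1 and 64.4 CPM over the classes, while Ddit3 stands at 39.1 CPM in class 1 and 26.3 CPM in class 5.

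Co-detection with Gdf15 was read in the HFD section by comparing the 2212 spots with a Gdf15 UMI with the 1382 spots without. Spots with Gdf15 were deeper (median 21842.5 against 13766 UMIs), so CPM levels were compared rather than detection, and again within 10 classes of depth. None of the 6 other genes of the set with at least 50 UMIs was higher by 0.32 or more on the log2 scale in spots with Gdf15, where 4.36% of 12467 genes were. At 8200 UMIs per spot the Gdf15 mean was 0.493 UMIs and the variance 1.10 times that mean, so counting error made up most of the variance. Having a Gdf15 UMI therefore separated spots by Gdf15 level only weakly, which draws ratios toward 0 here and in the comparisons below. Ratios near 0 thus do not show that the levels are unrelated. The levels with and without Gdf15 were 33.6 and 30.1 CPM for Ddit3 (log2 0.16, from 0.03 to 0.29), 64.3 and 64.9 CPM for Atf4 (log2 -0.01, from -0.11 to 0.08), and 185 and 179 CPM for Atf5 (log2 0.05, from -0.01 to 0.10). Chac1 (log2 0.10) and Sesn2 (log2 0.06, 6.63 and 6.38 CPM) had intervals that included 0. Trib3 stood at 6.09 CPM with Gdf15 and 7.38 CPM without (log2 -0.28, from -0.56 to 0.01), and within depth classes its ratio was -0.37 (-0.71 to -0.02). A Gdf15 UMI was present in 69.5% of periportal, 56.0% of middle and 59.3% of pericentral spots. With spots compared within these zones, the log2 ratio was 0.11 for Ddit3, -0.03 for Atf4 and 0.08 for Atf5. It was 0.07 for Chac1, 0.07 for Sesn2 and -0.21 for Trib3.

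**Figure D4:**
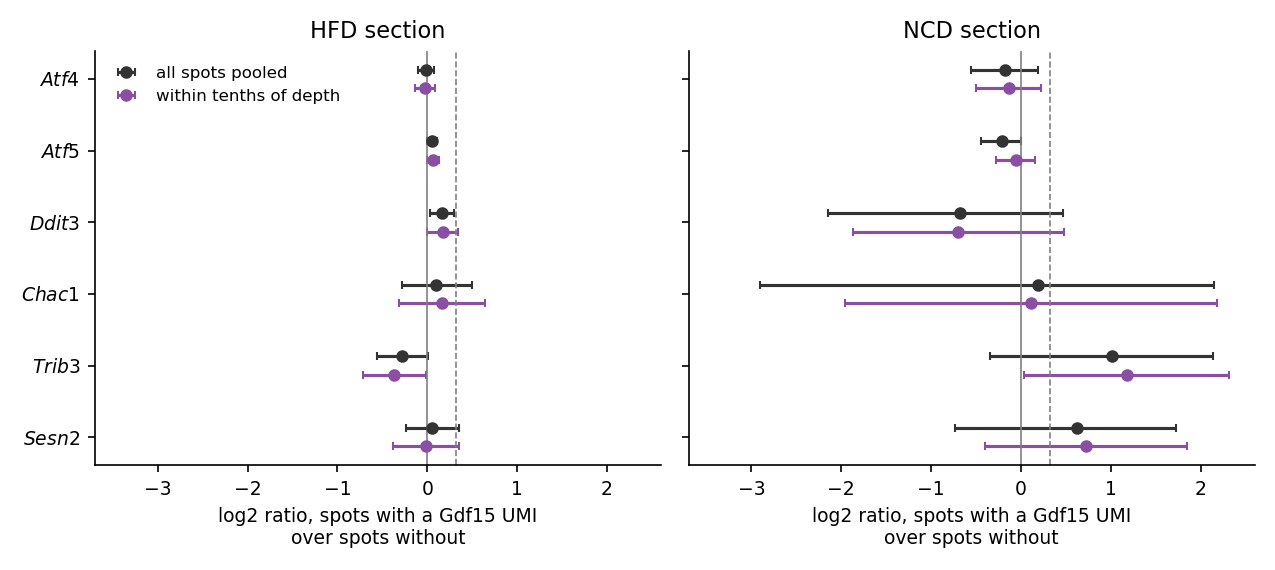
Log2 ratio of pooled CPM of 6 genes in spots with a Gdf15 UMI over spots without, in the HFD and the NCD section, pooled over all spots (black) and within depth classes (purple), with 95% counting intervals, and with lines at 0 (solid) and at 0.32 (dashed). The HFD points lie between -0.37 and 0.17, and the NCD intervals are wide because 71 spots held Gdf15.

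Detection was then compared at equal depth. Drawn down to 8200 UMIs, Ddit3 was present in 21.7% of 1213 HFD spots with Gdf15 and in 22.8% of 2030 without, Atf4 in 41.3% and 40.7%, Atf5 in 77.7% and 75.5%, Trib3 in 4.70% and 5.22%, and Sesn2 in 5.85% and 4.68%, with overlapping intervals in each case. The log2 ratio of the levels, with over without Gdf15, was -0.35 for Chac1 and 0.28 for Sesn2 at this depth, against 0.10 and 0.06 over all spots at full depth. The Ddit3 log2 ratio was 0.16 over all spots, 0.17 within depth classes (-0.00062 to 0.34) and -0.085 after the drawing down, which also left out 351 spots and counted 1213 in place of 2212 spots as holding Gdf15. Along rising Gdf15 counts at this depth, Ddit3 stood at 32.3 CPM in spots with none, 30.9 with 1, 29.5 with 2 and 27.5 with 3 or more, and Atf4 at 64.9, 62.9, 68.8 and 80.6 CPM, again with overlapping intervals (62 spots in the last class). A spot covers many cells, so cells that do and do not share the transcripts cannot be separated in it.

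In the NCD section the 71 spots with Gdf15 were compared with 3621 without. Of 6 other genes, 3 were past the same 0.32, where 14% of 10494 genes were, but on few counts: Trib3 and Sesn2 had 7 UMIs each in those spots and Asns 5. The intervals of these 3 pooled ratios included 0, and within depth classes that of Trib3 did not (log2 1.18, from 0.04 to 2.31).

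Gdf15 was also compared with all genes by the same ratio within depth classes. Of 10053 HFD genes with at least 200 UMIs, Ddit3 ranked 1159, Chac1 1203, Atf5 2959, Sesn2 5886, Atf4 6231 and Trib3 9851. The highest 10 were Grasp, Cep89, Gdpgp1, Tuft1, Srrm4, Usp37, Cenpl, Nfam1, Bcl2a1a and Nek1, with ratios from 0.98 down to 0.65 and all with between 211 and 296 UMIs, close to the minimum. With the minimum set at 1000 UMIs, a choice made after seeing these ranks, the ratios were smaller. The highest 10 of 5432 genes ran from 0.45 down to 0.33, with overlapping intervals, so their order is not settled. Fgf21, an ATF4 target that like Gdf15 encodes a stress hormone, was second and is named because it stood in the lists. It was at 25.7 CPM in spots with Gdf15 and 20.2 CPM without (1315 and 421 UMIs, log2 within depth 0.39, from 0.18 to 0.60). That interval does not allow for its choice from the top of the ranking. Cdkn1a stood at 47.1 and 44.3 CPM (0.10, from -0.04 to 0.24). In NCD the highest 3 of 7039 genes were Ighg2b, Ighm and Igkc, which encode immunoglobulin chains, and 82 of the 93 Ighg2b UMIs in spots with Gdf15 came from a single spot. The other 7 were Camsap2, Inpp5a, Tmem18, Fbxo7, Tie1, Sall1 and Cemip2, with 15 to 33 UMIs in those spots.

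Clusters of spots made from expression without the 10 genes gave a last view of the HFD section. Gdf15 was present in all 13 clusters. Over the 12 that held at least 1% of the spots it ranged from 42.7 CPM (35.4 to 51.1) in cluster 11, which was led by hemoglobin genes and was the shallowest with a median of 7716 UMIs, to 75.4 CPM (63.1 to 89.4) in cluster 7, led by Iglc2, Ighm, Adcy7 and Cidea. The second highest was cluster 3, led by Mmp12, Gpnmb and Ear2, genes known from macrophages, at 71.3 CPM (65.7 to 77.2). Cluster 5, led by Etnppl, Mmd2, Aldh1b1 and Sds, was low at 47.0 CPM (41.3 to 53.3). The highest and the lowest cluster were picked by this value, and their log2 ratio of 0.82 is a description.

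The highest levels of Ddit3 and Atf4 lay elsewhere. Both peaked in cluster 13 (121 spots), led by Ccl21a, Cnn1, Cpe, Dpep1 and Sfrp1, where Ddit3 stood at 58.2 CPM (49.2 to 68.3) against 32.6 in the section and Atf4 at 95.2 CPM (83.7 to 108) against 64.5. Gdf15 there was 55.0 CPM (46.3 to 64.9), an interval that holds its section level of 60.8 CPM. Chac1 was also highest there, with 20 UMIs and 7.81 CPM, while Trib3 reached 9.69 CPM in cluster 1, led by the pericentral genes Slc1a2, Rhbg and Glul. Clusters 13 and 1 were picked by these values, and the intervals do not allow for that choice. In NCD the 8 clusters held between 0 and 27 Gdf15 UMIs each, and all intervals of the level overlapped.

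**Figure D5:**
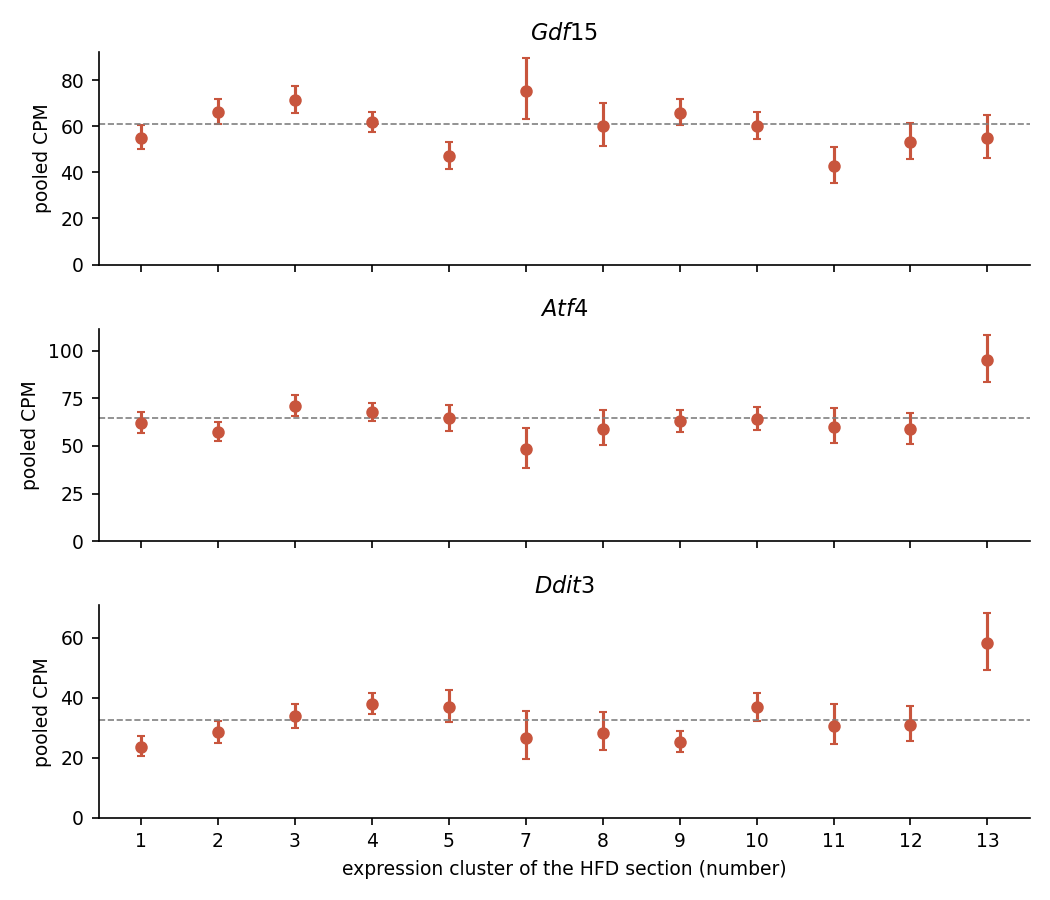
Pooled CPM of Gdf15, Atf4 and Ddit3 in the 12 expression clusters of the HFD section with at least 1% of its spots, with 95% counting intervals, where the dashed line is the level of the whole section. Atf4 and Ddit3 are highest in cluster 13, at 95.2 and 58.2 CPM, where Gdf15 stands at 55.0 CPM, with an interval that holds its section level of 60.8 CPM.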

How the data were processed

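Libraries of 1 NCD and 1 HFD liver section were made with the Visium kit. The authors aligned reads to mm10 and counted UMIs with Space Ranger (spaceranger 1.3.1 in the headers of the tissue matrices), and the deposited matrices hold raw UMI counts per gene and spot, over tissue and for the whole capture area. The annotation release is not given in the sources used here; gene positions are from GENCODE M21 (GRCm38), which held 32158 of 32285 identifiers. The 10 genes, the gene lists and the comparisons were chosen with earlier results of these data known. The genes named are the 10, those of the lists and, for each section, the 10 with the highest ratio in Gdf15 spots among genes with at least 200 UMIs. Genes that lead a cluster or overlap one of the 10 were named after their values were seen; Lonp1, Sesn1 and Xbp1 stand in 2 lists each.

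Counts were summed over spots and divided by all UMIs (CPM). Levels have exact Poisson, shares exact Clopper-Pearson and ratios exact conditional binomial intervals at 95%; ratios within depth have a normal interval on the log scale and share differences a Newcombe interval. UMIs are molecules, and these intervals leave out differences between animals. With 1 section per diet no test was possible. A gene needed 50 UMIs to be counted, and a spot 5 zone gene UMIs to be placed. Spots were drawn down without replacement (seed 1). Leiden clusters (scanpy 1.11.5) used values scaled to 10000 per spot, 2000 variable genes, 20 components, 15 neighbours, resolution 1 and seed 0. The interval calculations were tested on simulated data. The alternatives changed weighting, depth, spot and gene filters, scaling, zone genes, score and clustering.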

Additional observations from a re-analysis of the deposited data

Results flagged for a closer look

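Atf5 had gradients of opposite sign along the lobule in the 2 sections, each with an interval that excluded 0. The log2 ratio of the pericentral to the periportal zone was -0.19 in NCD and 0.18 in HFD, and the difference between the sections was not tested. Il4i1 and Nup62 overlap Atf5 on the other strand, and whether this affected its counts was not tested.

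Endoplasmic reticulum stress genes, summed over the list of 10, had a log2 ratio of 0.18 in NCD and of -0.49 in HFD. The sum of the 12 other ATF4 targets had 0.11 and -0.24. Every interval excluded 0, and the differences were again not tested. The median ratio of all genes with at least 50 UMIs was 0.11 in NCD and 0.07 in HFD. The NCD value of the ATF4 target sum was thus close to that of the median gene. Of the 106075 HFD UMIs in the ATF4 target sum, Herpud1 gave 62744 and Sqstm1 24584, so the sum mostly reads these genes rather than the whole list. In HFD the periportal zone was the deepest (median 24483 UMIs per spot), whereas in NCD it was the shallowest (4161, against 7904.5 and 5756.5), and the part of depth in these sign changes was not tested.

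In spots off the tissue of the HFD section, which lie outside the comparisons between and within the sections, Gdf15 stood at 43.6 CPM on 95 UMIs, against 1.60 CPM on 11 UMIs off the NCD tissue, where the median spot still held 3383 UMIs.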

How the results depend on the processing

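The Gdf15 log2 ratio between the sections stayed between 3.76 and 6.01 under 10 alternatives. The values outside its interval were 5.01 with every spot weighted equally, 6.01 with spots drawn down to 300 UMIs (1 NCD spot with Gdf15), 5.60 without the 1% of spots with the most UMIs of the gene, and 3.76 after subtraction of the mean off-tissue count. That subtraction rests on NCD spots off the tissue that held a median of 3383 UMIs. Leaving out the 1% of spots takes a larger part of the NCD counts by construction. Gdf15 was held by 71 NCD spots, 68 of them with 1 UMI, against 2212 HFD spots. The number of genes at least 2-fold higher in HFD was 4 to 6. Ratios of low genes moved as well, to 3.36 for Trib3 after the subtraction, which left it few NCD counts, and to 5.46 for Chac1 without the 1% of spots. The pericentral to periportal ratio of Gdf15 in HFD became 0.11 with zones cut within depth classes. The difference in the share of spots with Gdf15 depends on depth by construction: 1.86 points at 300 UMIs, 5.12 at 1000, 59.6 with no drawing down, and 1.47 for at least 2 UMIs. In Gdf15 spots, 1 HFD gene was past 0.32 with no minimum of UMIs (Psat1), and the NCD count was 1 for at least 2 Gdf15 UMIs and 0 at 300 UMIs. The log2 ratio of the highest to the lowest HFD cluster was 0.35 at resolution 0.5. The sign turned for Atf5 between the sections (-0.19 with spots weighted equally, -0.30 at 300 UMIs), for Chac1 between the sections at 300 UMIs (-0.66, on 3 NCD and 2 HFD UMIs), and for Ddit3 beside Gdf15 in HFD at 8200 UMIs (-0.085), where Chac1, whose interval includes 0, also went from 0.10 to -0.35. Of 125 alternative values for ratios whose interval excluded 0, 121 kept their sign. Apart from construction, the cause of these changes was not tested. No paired analysis was possible because each diet has 1 section, and leaving out a replicate was not possible for the same reason.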
